A study of Mus musculus with 3 samples.

Results

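Proteasome genes were read in gastrocnemius, a calf muscle, of mice that carry, in skeletal muscle, a fusion of the kinase Akt that tamoxifen stabilises. The genes were chosen by name: every gene whose symbol starts with Psm, a letter from a to g and a number, on probe sets that the platform annotation assigns to a single gene. This found 49 genes on 103 probe sets, out of 34945 probe sets with 1 gene on the array. Of these, 47 genes and 81 probe sets passed a filter on dim signals, among 11092 genes compared in all. The other 2, Psma8 and Psmb11, encode the testis and thymus forms of core subunits, and both were at or below the floor of 4.05 intensity units on all 3 arrays. Psme2 shares its probe set with Psme2b in the annotation and was not read as a gene of its own. Psmc3ip, a meiotic recombination factor, and Psme3ip1, a binding partner of the activator encoded by Psme3, fall under the rule by name only and are described apart at the end.

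All mice were C57BL/CD1 with the genotype given as Akt_Cre transgenic. What part Cre plays in it is not said. Per the labels they carried, in skeletal muscle alone, Akt joined to an estrogen-binding domain, a fusion that tamoxifen stabilises, and the oil controls carried it too. The control group had received oil 24 h earlier, and the treated groups tamoxifen, with muscle taken at 24 h or at 48 h. Each group was 1 Affymetrix array of RNA pooled from 3 to 4 mice. No value below therefore has a replicate error, no test between groups was possible, and the words higher and lower describe these arrays. The age of the mice and the promoter behind the transgene are not given in the sources used here. Oil at 48 h and tamoxifen without the fusion were not analysed here, so time at 48 h and other actions of tamoxifen cannot be told apart from Akt.

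The proteasome degrades proteins marked with ubiquitin. Its core particle is a barrel of alpha and beta rings (Psma and Psmb genes), in which the beta subunits encoded by Psmb5, Psmb6 and Psmb7 cut the chain. A regulatory cap sits on the barrel: its base holds 6 ATPases (Psmc genes), which unfold the substrate, and its lid (most Psmd genes) removes the ubiquitin. Other activators (Psme genes) can replace the cap, dedicated chaperones (Psmg genes among them) build the particle, and interferon swaps in the immunoproteasome subunits Psmb8, Psmb9 and Psmb10. In muscle this system carries out much of the protein loss of atrophy, and the FoxO factors that Akt restrains are known to drive its ubiquitin ligases.

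The arrays carried a muscle profile. All 9 markers of fast skeletal muscle fixed for this check were measured, and their median log2 ratio to oil was -0.07 at 24 h and -0.01 at 48 h. Intensities below were put on a common median, taken over probe sets that passed the filter, and a gene is read on the passing probe set of highest mean rank, called its brightest here. Log2 values of those probe sets correlated between arrays at r = 0.954 to 0.967 over all kept probe sets and at 0.987 to 0.990 over the 47 proteasome genes. The oil array serves in both comparisons at 24 h and 48 h, which are therefore not independent.

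Most proteasome genes read slightly above oil at 24 h. Of 47 genes, 38 (80.9%) had a log2 ratio above 0, against 54.0% of all genes compared, and their median log2 ratio was 0.15 against 0.04 for all genes. On intensities as deposited, with no scaling, the median over all genes at 24 h was 0.13, 62.9% of all genes and 42 of 47 proteasome genes had a ratio above 0, and 13.3% of all genes were 1.5-fold higher and 6.66% lower. On the brightest kept probe sets, no proteasome gene was 2-fold different from oil at 24 h, where 4.83% of all genes were; with no filter Psmb2 and Psmg4 were, and on second probe sets Psme3 was. By a 1.5-fold rule, 2 genes were higher, Psmb2 and Psmg4, against a background of 9.57% of all genes, and 1 was lower, Psmc3ip, against 9.02%. In bulk tissue, fewer cells of a type and less RNA per cell cannot be told apart. Proteasome genes are brighter than most. Among the 2824 genes with a mean percentile rank of 0.9 or more, 63.7% had a ratio above 0 at 24 h with a median of 0.10, and 28 of the 34 proteasome genes of that brightness did (82.4%, median 0.17). Of those bright genes, 2.41% were 2-fold different.

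At 48 h against oil the shift was similar in median and more mixed in direction. Here 31 of 47 genes had a ratio above 0 (66.0%, against 50.6% of all genes), and the median was 0.13 against 0.01. Of the bright genes, 58.8% of all and 70.6% of proteasome genes lay above 0, with medians of 0.08 and 0.13. On the brightest probe sets no proteasome gene was 2-fold different, where 6.44% of all genes were, but on second probe sets Psmb1 and Psme3 were. Psmg4, Psmg1 and Psmd14 were at least 1.5-fold higher, against a background of 11.7%, and no gene was 1.5-fold lower, against 10.7%. Psmd14 and Psmg1 lay just past that rule at 1.52-fold and 1.53-fold, while Psmb8 and Psme4 lay just short of it at 1.47-fold and 1.46-fold below oil. Without scaling, Psmb8 and Psme4 lay past it and Psmd14 and Psmg1 short of it. Of the 47 genes, 29 were lowest on the oil array, 26 were highest on the tamoxifen 24 h array and 14 were highest on the tamoxifen 48 h array. The same orders were not counted over all genes, of which 54.0% were above oil at 24 h. These counts therefore have no background and are no result about the family.

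**Figure D1:**
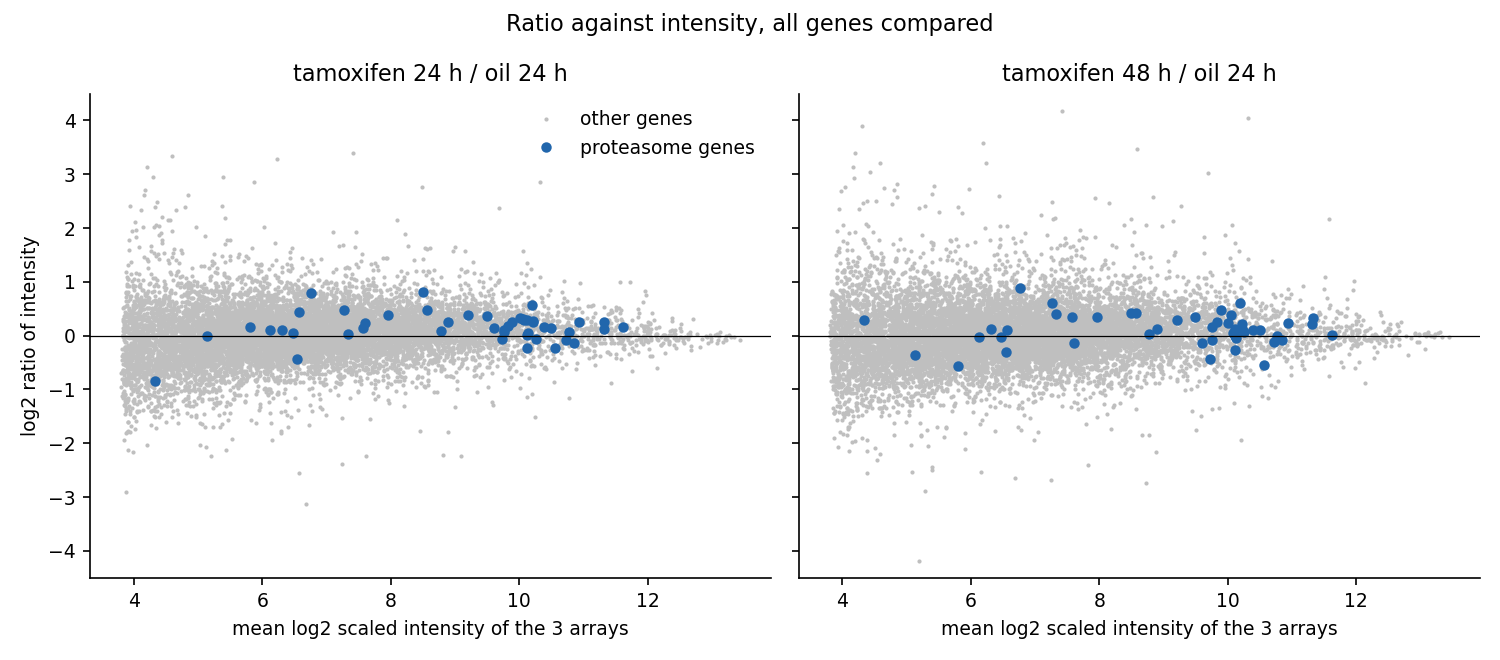
Log2 ratio to oil (vertical axis) against the mean log2 scaled intensity of the 3 arrays (horizontal axis) for all 11092 genes compared, at 24 h on the left and 48 h on the right. The 47 proteasome genes (blue) stay within 2-fold of oil in both panels, as do all but 2.41% of the genes (grey) with a mean rank of 0.9 or more at 24 h.

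Between the tamoxifen arrays, 48 h against 24 h, 16 of 47 proteasome genes had a ratio above 0, against 46.9% of all genes, and the medians were -0.05 and -0.02. Psmb8 was 1.64-fold lower at 48 h, the only proteasome gene past 1.5-fold in that direction, where 5.84% of all genes were. The only gene 1.5-fold higher was Psmc3ip (background 6.91%), which was also the only one past 2-fold (background 3.22%). Without scaling, 4 of 47 proteasome genes and 29.3% of all genes had a ratio above 0. The median over all genes moved to -0.18 and that of proteasome genes to -0.21. Scaling shifts all ratios above the floor alike, so the difference between both medians stays at -0.03 by construction.

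**Figure D2:**
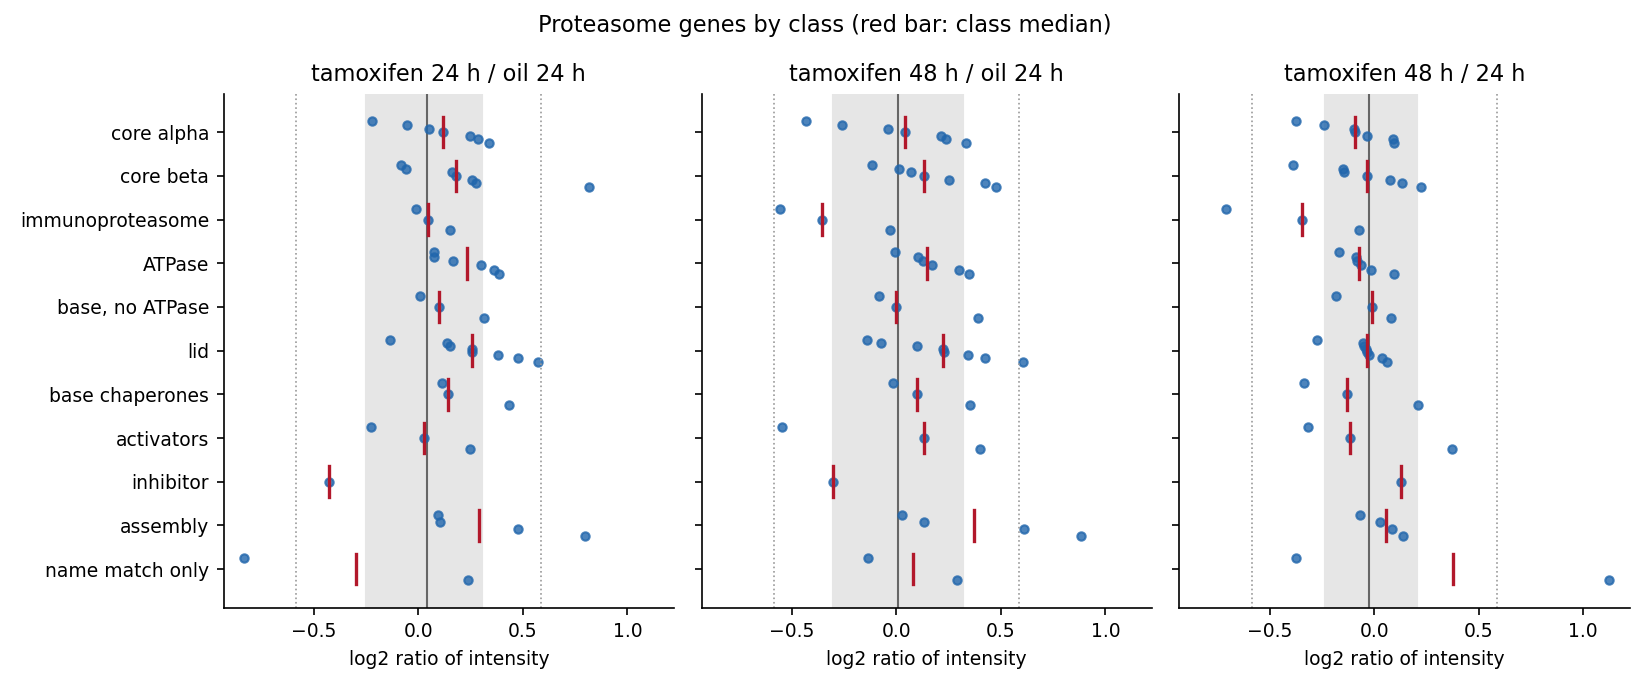
Log2 ratios of the 47 proteasome genes (blue points) by class, in 3 comparisons, with class medians in red, the median of all genes as a grey line, their middle quartiles as a grey band and 1.5-fold as dotted lines. Most points lie right of the grey line in both comparisons with oil, and the immunoproteasome median lies at -0.36 for 48 h against oil.

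The core rings lay close to oil as a group, with Psmb2 highest at 24 h and Psma7 lowest at 48 h. Class counts above oil stand beside 54.0% of all genes at 24 h and 50.6% at 48 h. Among bright genes the shares were 63.7% and 58.8%. In classes this small, such counts say little. The median log2 ratio of 7 alpha genes was 0.12 at 24 h and 0.04 at 48 h, with 5 and 4 genes above 0. At 48 h the alpha median turned to -0.02 without scaling and with loess and to -0.06 with quantile normalization, each with 3 genes above 0. For the 7 constitutive beta genes it was 0.18 and 0.13, with 5 and 6 genes above 0. Psmb2, a beta subunit without catalytic activity, read 272 with oil, 478 after 24 h and 365 after 48 h. That is 1.76-fold above oil at 24 h and 1.34-fold at 48 h, from a single kept probe set, and the 24 h ratio (log2 0.81) was the highest of all 47 genes.

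Psmb5 and Psmb6 were above oil on both tamoxifen arrays, and Psmb7 was above it at 24 h. Psmb6, which carries the caspase-like activity, read 803 with oil, 958 after 24 h and 1117 after 48 h, or 1.39-fold above oil at 48 h. Psmb5, the chymotrypsin-like subunit and the main target of bortezomib, read 824, 932 and 980.3 in the same order. Psmb7, the trypsin-like subunit, read 3035, 3389 and 3060.3, so its 48 h value was near the oil level (log2 0.01, and -0.05 without scaling). Each rests on a single kept probe set.

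Psma7, an alpha subunit, was the lowest core gene at 48 h. It read 947 with oil, 912 after 24 h and 703 after 48 h, and its other kept probe set read 703, 702 and 522. Both probe sets gave the same log2 ratio of -0.43 at 48 h, while at 24 h they gave -0.05 and -0.00. Psma5, another alpha subunit, read 1248, 1068 and 1044, with log2 ratios of -0.22 and -0.26. Its other kept probe set was also below oil at 24 h (-0.21) but not at 48 h (0.06). Psmb1, a beta subunit, read 1085, 1314 and 1189 on its bright probe set, while its dim probe sets, at 54.8 and 50.9 on oil, went to 34.2 and 24.9 at 24 h. The probe sets of Psmb1 thus point in opposite directions. Of the other alpha genes, Psma3 read 2234, 2651 and 2818, Psma4 read 906, 1144 and 1069, and Psma6 was above oil at both times on its brightest probe set. Psma2 was above oil at 24 h and read 0.04 at 48 h, which turned to -0.02 without scaling. On their brightest probe sets, Psma1 lay within 1.04-fold of oil, Psmb3 within 1.05-fold and Psmb4 within 1.08-fold. The other kept probe set gave -0.29 and -0.33 for Psma1, and 0.16 and 0.26 for Psmb3.

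The ATPase genes were above oil at 24 h in 6 of 6 cases, or 5 of 6 with quantile normalization or loess, where Psmc4 lay below. The share over all genes was 54.0%, and over bright genes 63.7%. The 6 genes had log2 ratios from 0.07 (Psmc2) to 0.39 (Psmc1), with a median of 0.23. At 48 h 5 of 6 stayed above oil, against 50.6% of all genes, and the median was 0.15. Psmc1 read 503 with oil, 658 after 24 h and 619 after 48 h, and Psmc5 read 612, 787 and 779. Psmc2 read 1723, 1813 and 1715, and of its other kept probe sets the bright one gave 0.25 at 24 h and one at 21.3 on oil gave -1.41. Psmc4 gave 0.08 at 24 h on its brightest probe set and 0.45 on the other. Psmc6 read 1009, 1240.0 and 1102, and Psmc3 read 1261, 1413 and 1353.

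In the lid, 7 of 8 genes were above oil at 24 h and 6 of 8 at 48 h, with medians of 0.25 and 0.23, and Psmd14 led the class. The shares over all genes were 54.0% and 50.6%. Psmd14, the metalloprotease that takes ubiquitin chains off the substrate, read 888 with oil, 1319.6 after 24 h and 1353 after 48 h (1.49-fold and 1.52-fold). Psmd3, a scaffold subunit of the lid, read 309, 429 and 414 (1.39-fold and 1.34-fold). Both tamoxifen arrays lay above oil for each of them, at nearly the same level. Psmd14 and Psmd3 rest on a single kept probe set each, and both ratios of a gene share the same oil value. Psmd13 read 210.2, 274 and 267 on its brightest probe set, but its other kept probe sets gave -0.15 and -1.11 at 24 h. On their brightest probe sets, Psmd6, Psmd8 and Psmd12 were above oil at both times, by at most 1.19-fold. Psmd7 was above oil at 24 h (log2 0.14) and below it at 48 h (-0.14). The other kept probe set of Psmd6 was about as bright (1946, 1830 and 1888) and lay below oil at both times (-0.09 and -0.04). That of Psmd7 was dim and gave -0.60 and -0.25.

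Psmd11 was the lid gene below oil on both tamoxifen arrays, at log2 ratios of -0.14 and -0.07. It is a structural lid subunit that has been tied to proteasome assembly in stem cells. Its brightest probe set read 1938, 1763 and 1842, and its 5 kept probe sets lay between -0.79 and 0.16 for 24 h and between -0.96 and 0.03 for 48 h. In the base outside the ATPases, Psmd1 was above oil at both times (log2 0.31 and 0.39), while Psmd2, a large scaffold that binds ubiquitin-like domains, read 1109, 1113 and 1107 on the 3 arrays. Psmd4, a ubiquitin receptor of the base, gave 0.10 and -0.08 on its brightest probe set and -0.15 and -0.19 on its other kept one.

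The assembly chaperones held the highest class median against oil, 0.29 at 24 h and 0.37 at 48 h, with 4 of 4 genes above oil at each time. The shares over all genes were 54.0% and 50.6%, and a count in 4 genes says little. Psmg2 lay so near oil that its sign turned with quantile normalization and loess at both times and without scaling at 48 h. Psmg4, a partner of Psmg3 in building the alpha ring, read 73.7 with oil, 128 after 24 h and 136 after 48 h, or 1.74-fold and 1.84-fold. Psmg1, which pairs with Psmg2 in ring building, read 119.8, 167 and 183, or 1.39-fold and 1.53-fold. Their partners lay closer to oil: Psmg3 read 75.2, 80.8 and 82.4, and Psmg2 read 427, 456 and 435. Within each pair, then, the genes gave different ratios on the same arrays, and Psmg1 and Psmg4 have a single kept probe set each.

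The chaperones of the base were above oil at 24 h in 3 of 3 genes and at 48 h in 2 of 3, against 54.0% and 50.6% of all genes. Psmd10 (gankyrin), also known as an oncoprotein in liver, read 83.7, 113 and 89.7, above oil at 24 h. Psmd5 read 169, 187 and 216, and its higher value was at 48 h. Psmd9 read 68.1, 73.7 and 67.2. Pomp, the core maturation factor, which is no member by name, read 797, 904 and 912.

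**Figure D3:**
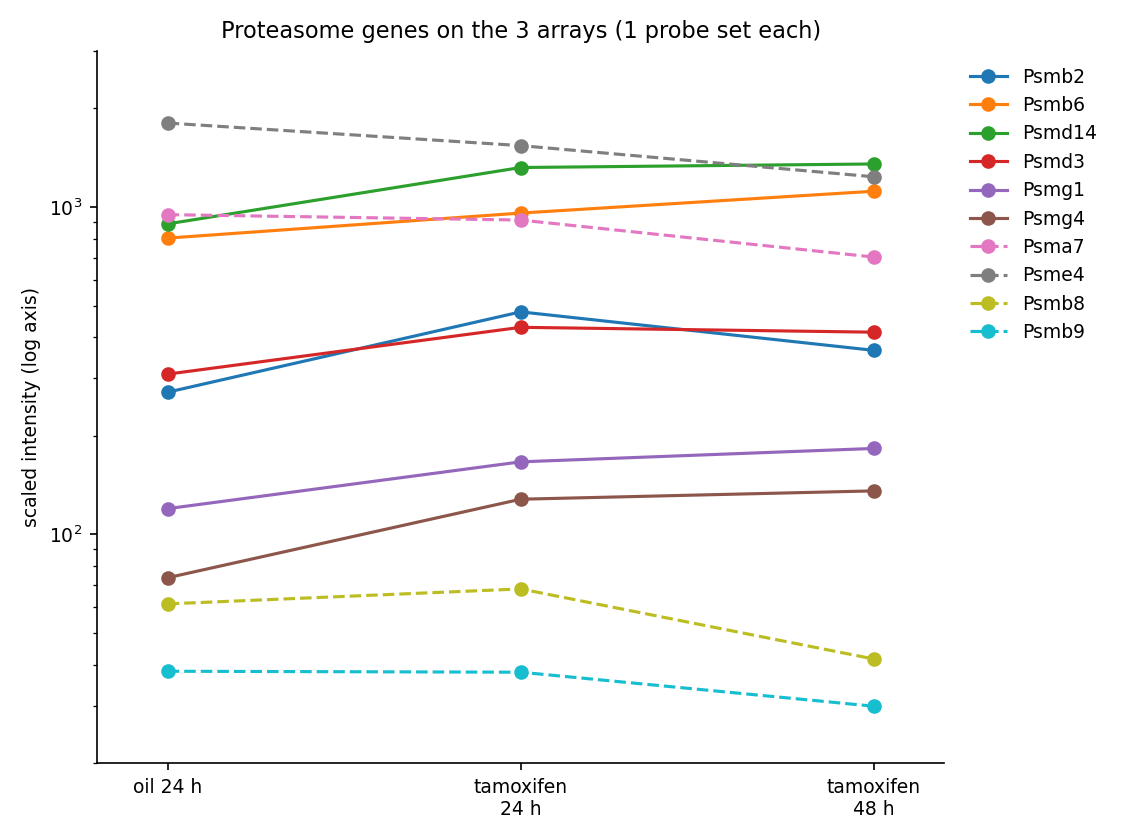
Scaled intensity on a log axis for 10 proteasome genes on the oil 24 h, tamoxifen 24 h and tamoxifen 48 h arrays, 1 point per array with no error. Solid lines mark 6 genes above oil on both tamoxifen arrays (Psmg4 went from 73.7 to 136), and dashed lines mark 4 genes that were lowest at 48 h (Psme4 went from 1804 to 1236).

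The immunoproteasome genes were dim and were at or near oil at 24 h and at or below it at 48 h. Psmb8 read 61.3 with oil, 68.1 after 24 h and 41.6 after 48 h, which is 1.47-fold below oil and 1.64-fold below tamoxifen 24 h. Psmb9 read 38.2, 37.9 and 29.9, or 1.28-fold below oil at 48 h. Psmb10 read 88.5, 91.2 and 86.6, within 1.05-fold across the arrays. The class median was 0.04 at 24 h and -0.36 at 48 h, against 0.18 and 0.13 for the constitutive beta genes. Each gene has a single kept probe set, and with Psmb8 and Psmb9 below a mean rank of 0.75, only Psmb10 is left when the filter is raised to that rank.

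Psmb8 and Psmb9 lie next to the peptide transporter genes Tap1 and Tap2 in the major histocompatibility region of chromosome 17, in the order Psmb9, Tap1, Psmb8, Tap2. Tap1 read 17.6 with oil, 31.6 after 24 h and 20.5 after 48 h, and Tap2 read 47.3, 43.1 and 55.8. Neither neighbour was below oil at 48 h, and Tap1 was dim on all 3 arrays. Of 11 antigen processing and interferon genes compared, 4 (36.4%) were above oil at 48 h, against 50.6% of all genes, and their median was -0.22. Irf1, an interferon-induced factor that activates Psmb8 and Psmb9, read 153, 123 and 139, and Gbp2, an interferon-induced GTPase, read 102, 80.2 and 66.3. Igtp of the same list went the other way, at 96.6, 133 and 123. Erap1, which trims peptides for presentation, read 57.4, 47.0 and 40.3 with a second probe set above oil at 48 h (0.53), and H2-D1, a class I heavy chain, read 958, 591 and 776 with 7 kept probe sets that spread from -1.37 to 5.67 at 24 h. Leukocytes express the immunoproteasome constitutively. Of 9 leukocyte markers compared (of 11 listed), 3 (33.3%) were above oil at 48 h, against 50.6% of all genes, and none was at the floor. The summed intensity of the 9 markers was 1820.0 with oil, 1853 after 24 h and 1617 after 48 h. Ptprc (CD45) read 89.9, 62.4 and 61.1, and Laptm5 85.5, 66.5 and 64.3, while Cd68 read 71.1, 87.8 and 106. Itgam, dim at 13.8, 16.9 and 23.9, was the only marker past 1.5-fold at 48 h (log2 0.80). That is a share of 11.1%, against 22.4% of all genes in either direction. The part of these cells in the immunoproteasome values was not tested.

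Among the activators, Psme4 was below oil at 48 h on every kept probe set. It encodes a large nuclear and cytoplasmic cap known for degrading acetylated histones. Its brightest probe set read 1804 with oil, 1539 after 24 h and 1236 after 48 h, the next 1124, 1151 and 769, and the third 769.6, 638 and 466. The log2 ratios of its 5 kept probe sets ranged from -0.72 to -0.35 at 48 h. At 24 h they ranged from -1.77 to 0.03, and the lowest of these came from a probe set at 24.7 on oil.

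Psme3, the nuclear activator that works without ubiquitin, was above oil at 48 h on both kept probe sets but by different amounts. The brighter one read 146, 148 and 192 (log2 0.40 at 48 h) and the dimmer one 30.4, 62.6 and 83.3 (1.45). At 24 h they gave 0.03 and 1.04, and the first turned to -0.03 with quantile normalization. Psme1, the interferon-inducible activator of the same family, read 437, 518 and 478. Psmf1, which inhibits the core in vitro, read 111, 82.0 and 89.5 on its brightest probe set, or 1.35-fold and 1.23-fold below oil. Its other kept probe sets were above oil at both times, from 0.11 to 0.33, so its direction depends on the probe set.

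**Figure D4:**
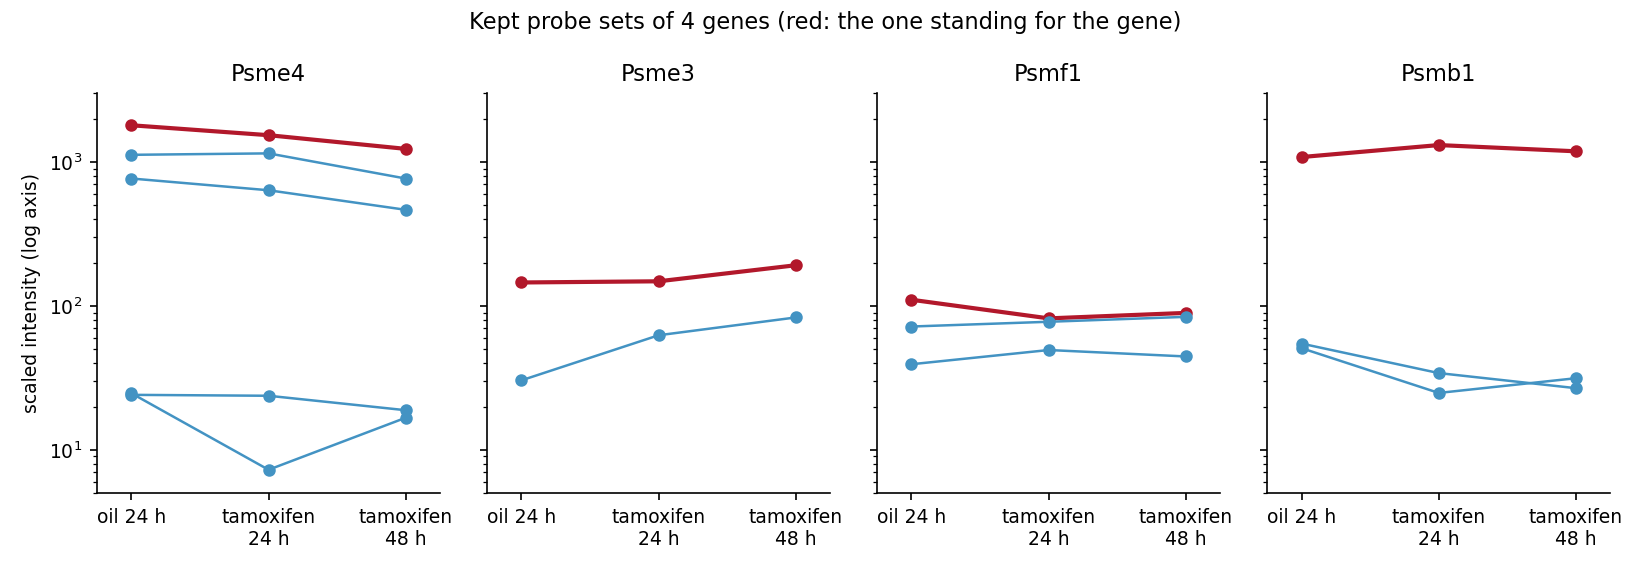
Scaled intensity on a log axis for every kept probe set of Psme4, Psme3, Psmf1 and Psmb1 on the 3 arrays, with the probe set that stands for the gene in red. All 5 probe sets of Psme4 are lower at 48 h than on oil, both of Psme3 are higher, and those of Psmf1 and Psmb1 go in different directions.

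Agreement between probe sets limits how far a single gene can be read. In 22 proteasome genes a second probe set was kept. The brightest pair had opposite signs in 13 of them at 24 h and in 7 at 48 h. The median absolute difference between that pair was 0.28 at 24 h and 0.17 at 48 h, against 0.32 and 0.29 over the 5001 genes of the array with a second kept probe set. All kept probe sets gave the same sign in 7 of the 22 genes at 24 h and in 14 at 48 h, among them Psma7, Psme3 and the 5 probe sets of Psme4.

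Transcription of proteasome genes is known to be raised by Nrf1, encoded by Nfe2l1, which binds antioxidant response elements after it is released from the endoplasmic reticulum. Nfe2l1 read 321 with oil, 501 after 24 h and 385 after 48 h, 1.56-fold above oil at 24 h (log2 0.64) and at a log2 ratio of 0.26 at 48 h, on a single kept probe set. The related factor Nfe2l2 (Nrf2) read 496, 354 and 394, below oil on both tamoxifen arrays. Bach1, a repressor at the same elements, read 377, 236 and 228, and its 2 kept probe sets were both below oil at both times. Ufd1, a cofactor of the segregase that extracts Nrf1, read 234, 338 and 348, and Mafk, a small Maf partner, 70.0, 71.0 and 104. Of the 11 genes of this list compared, 8 (72.7%) were above oil at 24 h and 7 (63.6%) at 48 h, with medians of 0.17 and 0.21. Of all genes, 54.0% and 50.6% were. By the 1.5-fold rule 1 gene was higher and 1 lower at 24 h, shares near the background.

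RefSeq promoter windows, from 250 bases before to 50 after each start on GRCm38.p6, were searched on both strands for the core of the antioxidant response element, TGACNNNGC. The table held 44 windows for 41 of the 49 genes. The letters occurred in 6 of the 44 (13.6%), against 12.4% of all 32851 windows. The windows of 4 genes held them within 50 bases of the start, and these are shown. They were picked with the ratios to oil known, because those ratios differ in sign. Each stretch runs from 150 bases before the start to 5 after it, 5′ to 3′ on the gene's strand, with the match in capitals. They lie at chr14:54617991-54618145 (minus strand), chr11:70525207-70525361 (plus strand), chr5:123228040-123228194 (plus strand) and chr11:30771625-30771779 (plus strand).
Psmb5: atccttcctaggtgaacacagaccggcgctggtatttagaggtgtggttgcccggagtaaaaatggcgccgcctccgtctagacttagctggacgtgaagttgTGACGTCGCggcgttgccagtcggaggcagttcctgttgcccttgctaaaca
Psmb6: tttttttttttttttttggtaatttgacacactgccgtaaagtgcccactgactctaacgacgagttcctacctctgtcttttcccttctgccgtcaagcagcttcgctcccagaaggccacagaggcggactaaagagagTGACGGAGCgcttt
Psmd9: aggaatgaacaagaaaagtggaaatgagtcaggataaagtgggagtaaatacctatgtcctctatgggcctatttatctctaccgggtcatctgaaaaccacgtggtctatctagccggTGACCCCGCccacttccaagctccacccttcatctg
Psme4: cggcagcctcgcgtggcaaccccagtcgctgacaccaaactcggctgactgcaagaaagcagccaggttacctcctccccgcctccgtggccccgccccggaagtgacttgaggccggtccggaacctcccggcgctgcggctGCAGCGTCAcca

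The match in Psme4 is on the opposite strand and starts 7 bases before the annotated start, while those in Psmb6, Psmd9 and Psmb5 start 9, 31 and 47 bases before it. At 48 h the log2 ratios of these genes were 0.48 for Psmb6, 0.25 for Psmb5, -0.02 for Psmd9 and -0.55 for Psme4. Psmc6 and Psmd12, with matches 227 and 247 bases before the start, gave 0.13 and 0.22 at 48 h. Of these 6 genes, Psme4 alone was below oil at 24 h (-0.23). As the 4 genes shown were picked for it, their difference in sign says nothing about the match. A match describes letters and is no binding site. GAAANNGAA, the core of the interferon-stimulated response element, occurred in 15.9% of the proteasome windows and 8.56% of all windows, Psme1 and Psmg4 among them, and not in those of Psmb8, Psmb9 and Psmb10. CCAAT, the NF-Y box, occurred in 36.4% against 37.4%. No matches of different motifs overlapped in these 44 windows, and the shares were not tested.

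Of 10 partners of the proteasome compared, none was 1.5-fold different against oil at either time. Of all genes, 9.57% were higher and 9.02% lower by that rule at 24 h, and 11.7% and 10.7% at 48 h, so a count of 0 in 10 says little. The medians were 0.08 at 24 h and -0.03 at 48 h. Usp14, a deubiquitinase bound to the cap, read 305, 367 and 341, though its 4 kept probe sets ranged from -0.42 to 0.39 at 24 h. Uchl5, another, read 305, 302 and 296, and its other kept probe set gave -1.18 at 48 h. Sem1, a small lid subunit without a Psm name, read 1064, 1120.2 and 1059. Zfand2a, a stress-induced partner, read 91.2, 118 and 131. Of its 3 kept probe sets, the lowest gave -0.37 at 24 h and the highest 0.37. Zfand5, which activates the proteasome in atrophying muscle, read 3085, 2484 and 2452. Its 6 kept probe sets all lay below oil at 48 h (-1.31 to -0.11). They fell on both sides of oil at 24 h, the lowest at -1.12 and the highest at 0.58. Txnl1, a thioredoxin-like subunit of the cap, read 1500.5, 1207 and 1183. All 3 kept probe sets of Txnl1 lay below oil at 48 h (-0.48 to -0.34). At 24 h the lowest of them gave -0.69 and the highest 0.37. Akirin2, a nuclear import factor of the proteasome, read 735, 570.4 and 662.

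Shuttle factors, which carry ubiquitinated proteins to the cap, gave values on both sides. Of 6 compared, 4 (66.7%) were above oil at 24 h and 3 (50%) at 48 h, against 54.0% and 50.6% of all genes. Ubqln2 was the only one past 1.5-fold, a share of 16.7%. Of all genes, 18.6% were past it in either direction at 24 h and 22.4% at 48 h. It read 514 with oil, 266 after 24 h and 281 after 48 h, while its relatives Ubqln1 (518, 672 and 615) and Ubqln4 (137, 199.8 and 172) lay above oil. Rad23b read 473, 526 and 605. Of the 6 genes for ubiquitin and its activation, only Uba6 was compared, at 99.1, 106 and 80.5.

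The genes that match by name alone gave these values. Psmc3ip read 22.9 with oil, 12.8 after 24 h and 28.0 after 48 h on its brighter probe set, and 13.4, 24.3 and 20.9 on the other, which goes the opposite way at 24 h. Psme3ip1 read 189.9, 224 and 173. Without both genes, the family median was 0.15 at 24 h and 0.13 at 48 h.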

How the data were processed

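The data are 3 Affymetrix arrays, 1 per group. The authors deposited linear intensities for 45101 probe sets; how these were summarised, corrected for background or scaled is stated neither by the labels nor by the files. After 64 controls were dropped, 34945 probe sets had 1 gene in the platform annotation, with symbols updated through Entrez identifiers to RefSeq (GRCm38.p6). Probe sets with a mean percentile rank of at least 0.5 were kept (21804, unnamed ones included). Intensities were multiplied by 1.01, 0.945 and 1.05 (oil, 24 h, 48 h) to equalise the medians of these, floored at 4.05 (the 25th percentile) and compared as log2 ratios. Each gene was read on the kept probe set with the highest mean rank. A single array per group gives neither replicate error nor a test, so the precision is limited by how few arrays there are. The 1.5-fold and 2-fold rules are rules of size.

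The members and lists were chosen with earlier results of these data known. Named with values were the immunoproteasome, activator, inhibitor, assembly and catalytic genes, the 5 highest and 5 lowest of each comparison, genes past 1.5-fold, genes whose kept probe sets lay over 1 log2 unit apart, up to 4 genes of each other list by size of ratio to oil, and Nfe2l1, Nfe2l2, Pomp, Sem1, Usp14, Uchl5, Tap1, Tap2 and Irf1. Adrm1 and Paaf1 were not analysed here, and other genes were named after their values were seen. Scaling, filter, floor and choice of probe set were varied. Ratios were checked on simulated data. Python 3.11.15, pandas 2.3.3, R 4.3.3 and limma 3.58.1 (cyclic loess) were used.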

Additional observations from a re-analysis of the deposited data

Results flagged for a closer look

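A probe set of Psmd4, the ubiquitin receptor of the base, that failed the filter on dim signals was higher on the tamoxifen 48 h array. It read 6.75 with oil, 2.70 after 24 h and 32.2 after 48 h, above both other arrays. The kept probe sets of Psmd4 gave -0.08 and -0.19 at 48 h. It was singled out because its signal lies outside the comparisons and above the oil array, and its cause was not tested.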

How the results depend on the processing

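Under 11 other settings of scaling, filter, floor and probe set, and without Psmc3ip and Psme3ip1 (chosen after seeing the data), the family median stayed above 0 against oil, at 0.08 to 0.44 for 24 h and 0.04 to 0.18 for 48 h. The median over all genes moved too, to 0.19 with no filter at 24 h. The family median minus that of all genes was 0.11 at 24 h and 0.12 at 48 h in the report, 0.07 and 0.05 with quantile normalization, 0.07 and 0.07 with loess, and 0.25 and 0.18 with no filter. Genes above 0 at 24 h went from 38 to 34 of 47 with quantile normalization or loess. Psmc3ip was past 2-fold for 48 h against 24 h with loess, a rank minimum of 0.25 and a floor of 1, and under no other setting. Counts past 1.5-fold are small and depended on the setting, and the shares of all genes moved too. At 24 h, 17.0% of all genes were higher with a rank minimum of 0.25, 22.9% with no filter and 10.9% on second probe sets. Over all settings, 5.92% to 12.5% of all genes were lower at 24 h. At 48 h, 9.57% to 16.3% were higher and 8.28% to 14.4% lower. For 48 h against 24 h, 4.04% to 11.4% were higher and 3.11% to 16.2% lower. Higher at 24 h (2 in the report) were 5 with a rank minimum of 0.25, 12 with no filter and 4 on second probe sets; lower (1) were 2 on second probe sets and 0 with quantile normalization, a rank minimum of 0.75, no filter, no _x_at or _s_at probe sets, or without those genes. Higher at 48 h (3) were 5 on second probe sets and 1 with no scaling, quantile normalization, loess or a minimum of 0.75, where Psmd14 and Psmg1 missed the rule; lower (0) were 2 with no scaling (Psme4 and Psmb8) and 1 with quantile normalization, loess, the median of probe sets or second probe sets. For 48 h against 24 h, higher (1) were 0 with a minimum of 0.75, the median of probe sets, second probe sets, no _x_at or _s_at sets, or without those genes, and lower (1) were 0 with a minimum of 0.75 and 4 with no filter. Psmc3ip turned from -0.83 at 24 h to 0.0144 on the median of its probe sets and 0.86 on the second or with no _s_at sets, and from 1.12 to -0.22 for 48 h against 24 h with either of the latter. A changed filter also changes the probe sets whose medians set the scaling. Apart from that, and from fewer genes under a stricter filter, the cause was not tested. Dim genes rest on signals nearer background. No paired analysis was possible because each group is 1 array.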

Other observations

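Ubiquitin-conjugating enzymes pass ubiquitin to the proteins that the proteasome degrades. Of 11 ubiquitin-conjugating enzymes compared, 8 (72.7%) were above oil at 24 h and 8 (72.7%) at 48 h, with medians of 0.30 and 0.16. Of all genes, 54.0% lay above oil at 24 h and 50.6% at 48 h. Ube2n, which builds K63-linked chains, read 219.8 with oil, 433 after 24 h and 379 after 48 h, though its other kept probe set gave 0.06 at 48 h. Ube2g2, an enzyme of degradation from the endoplasmic reticulum, read 306, 419 and 489. Ube2d3 read 1915, 2841 and 2157, and its 7 kept probe sets were all above oil at both times. Ube2d2a read 1114, 742 and 965 on its brightest probe set, with others up to 0.51 at 24 h.

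Of 8 deubiquitinases compared, 6 (75%) were above oil at 48 h, against 50.6% of all genes, and their median was 0.23. Otub1 read 80.2, 107 and 143, and both its kept probe sets were above oil at both times. Usp2, a muscle deubiquitinase under circadian control, read 1219, 1391 and 1779, and Usp19 read 190.5, 231 and 239. Atxn3 read 31.5, 25.6 and 29.6.

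Of 8 Nrf2 targets compared, 5 (62.5%) were above oil at 24 h and 4 (50%) at 48 h, against 54.0% and 50.6% of all genes. Txnrd1, a thioredoxin reductase, read 393, 286 and 215, with all 3 kept probe sets below oil. Nqo1, a quinone reductase, read 70.4, 53.8 and 46.8, Gclc, the catalytic subunit of glutathione synthesis, 93.7, 53.1 and 93.4, and Gsta4 116, 165 and 143. Other cell types gave these list medians at 24 h and 48 h: -0.05 and -0.02 for 4 fibroblast markers, 0.35 and -0.36 for 4 endothelial markers and 0.22 and -0.24 for 2 adipocyte markers. Fibroblast markers spread from -0.33 (Dcn) to 0.81 (Col1a1) at 24 h and from -0.41 to 1.18 at 48 h. Endothelial markers spread from -0.36 (Tek) to 0.75 (Kdr) at 24 h and from -0.42 to 0.47 at 48 h. Within both lists the markers thus went in opposite directions.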
